A study of Mus musculus with 8 samples.

Results

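The genes described here encode the heavy chains of major histocompatibility complex (MHC) class I and their light chain, beta-2-microglobulin, in liver. The members are H2-K1, H2-D1 and H2-L (classical heavy chains), H2-Q7, H2-Q10, H2-T23, H2-T10 and H2-M3 (non-classical heavy chains), B2m (the light chain) and Fcgrt (a related Fc receptor). Every probe set whose symbols in the platform annotation included a member was taken, together with probe sets that carried several class I symbols. This gave 21 of 12422 probe sets that were not controls. Of the 10 named genes, 9 had a probe set, out of 8949 genes on the array, and no probe set carried the symbol H2-L. Only 11 of the 21 probe sets carried 1 symbol. The other 10 were shared, and 3 of these named no member. H2-Q7, H2-T23 and H2-T10 were present on shared probe sets only, so their signals are given under all the symbols concerned.

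The samples were 8 livers of female Ames dwarf mice (df/df) that ate a standard pelleted diet freely and were killed between 24 and 26 months of age. Ames dwarf mice lack the pituitary cells that make growth hormone, prolactin and thyrotropin. Total RNA of each liver was read on 1 Affymetrix mouse U74Av2 array, and all 8 form 1 group, so levels were compared from liver to liver and with no other genotype or diet. The samples are numbered in the labels but not stated to be separate mice, and p-values therefore measure only the spread between these samples, which may be technical.

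Class I molecules carry short peptides from inside the cell to its surface. The peptides are cut by the proteasome, pumped into the endoplasmic reticulum by the transporter Tap1/Tap2, and loaded onto a heavy chain already paired with B2m. Classical heavy chains are highly polymorphic and present peptides to CD8 T cells, whereas non-classical ones vary little between individuals and have narrower tasks, and interferons raise transcription of most of these genes in many cell types.

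The heavy chain genes lie together on mouse chromosome 17 in GRCm38.p6. H2-K1 stands at chr17:33996012-34000619, H2-D1 at chr17:35263094-35267497, H2-Q7 at chr17:35439140-35443773, H2-Q10 at chr17:35470089-35474563 and H2-T23 at chr17:36029977-36032701. H2-T10, annotated as a transcribed pseudogene, stands at chr17:36115871-36121444 and H2-M3 at chr17:37270234-37274485. B2m is on chromosome 2 at chr2:122147687-122153082, and Fcgrt is on chromosome 7 at chr7:45092993-45103822. Promoters of 8 members were found in the RefSeq promoter table of GRCm38.p6. They were searched on both strands over the 250 bases before the start for short motifs known from class I regulation, and GGGATTCCC was added to the search after these sequences had been seen. The longest run of bases that at least 5 of the 8 promoters shared on the gene's strand was the 11 bases GTTTCACTTCT, whose letters resemble an interferon-stimulated response element. The stretches that end in this run are printed to show what the heavy chain promoters have in common, each 5′ to 3′ on the gene's own strand, 30 bases long and upstream of an annotated transcript start, with GGGATTCCC and the shared run in capitals. The H2-K1 stretch lies inside the outermost model of that gene. Coordinates are chr17:34000428-34000457 on the minus strand for H2-K1, and on the plus strand chr17:35262924-35262953 for H2-D1, chr17:35439022-35439051 for H2-Q7, chr17:35469914-35469943 for H2-Q10 and chr17:37270113-37270142 for H2-M3.
H2-K1: GGGATTCCCcatctccacaGTTTCACTTCT
H2-D1: GGGATTCCCcatctcctcaGTTTCACTTCT
H2-Q7: gGGGATTCCCatctccccaGTTTCACTTCT
H2-Q10: aggactccccatctccccaGTTTCACTTCT
H2-M3: ttcccccatttcctctgagGTTTCACTTCT

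GTTTCACTTCT was found in the promoters of these 5 genes, which is how it was chosen, and in 0.0517% of all 32851 RefSeq mouse promoters of the same length. GGGATTCCC, a palindrome of the kind that NF-kappaB proteins bind, was found in H2-K1, H2-D1 and H2-Q7 and in 0.301% of all promoters. The H2-Q10 and H2-M3 stretches do not hold it. TGACG, the core of the site bound by CREB-like factors, was found in H2-K1, H2-D1, H2-Q7, H2-M3, B2m and Fcgrt, against 17.8% of all promoters. It was not found in the windows of H2-Q10 and H2-T23. CCAAT was found in 6 of the 8 members, all but H2-Q10 and Fcgrt, against 33.8% of all promoters. These matches describe letters, not bound sites, and the reference genome may differ from that of the mice, whose H2 haplotype is not given in the labels.

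B2m and H2-Q10, the members whose signals varied least, are shown next with the 250 bases that end just before their starts, so that they can be set beside H2-D1. Capitals mark every motif match on either strand. In B2m (chr2:122147437-122147686, plus strand) the matches are, in order, the ISRE-like motif of a repeated TTTC with 2 bases between, read on the opposite strand (2.98% of all promoters), a kappaB-like motif of GGG and TTTCC with 2 bases between, read on the opposite strand (1.41%), TGACG, and CCAAT read on the opposite strand. A looser kappaB-like motif of GGG and TTCC with 3 bases between matches at the same bases as the stricter one (4.65% of all promoters). TGACGTCA, which contains TGACG, had no match in any of the 8 promoters (1.55% of all), and TTCNNNGAA matched only in H2-M3 (7.02% of all). The ISRE-like motif was also found in H2-T23. In H2-D1 (chr17:35262844-35263093, plus strand) they are GGGATTCCC, the shared run, TGACG, and CCAAT on each strand. In H2-Q10 (chr17:35469839-35470088, plus strand) the shared run is the only match among the motifs searched.
B2m: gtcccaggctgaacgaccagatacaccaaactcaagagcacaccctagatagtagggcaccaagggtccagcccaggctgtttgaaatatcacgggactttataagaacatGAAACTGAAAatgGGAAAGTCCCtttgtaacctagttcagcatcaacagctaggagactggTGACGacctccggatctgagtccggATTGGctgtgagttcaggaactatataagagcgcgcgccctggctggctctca
H2-D1: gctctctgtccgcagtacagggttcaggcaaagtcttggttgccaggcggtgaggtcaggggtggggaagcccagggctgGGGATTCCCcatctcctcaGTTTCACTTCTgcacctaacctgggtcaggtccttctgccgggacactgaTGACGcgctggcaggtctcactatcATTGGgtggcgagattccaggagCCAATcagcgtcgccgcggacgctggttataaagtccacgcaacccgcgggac
H2-Q10: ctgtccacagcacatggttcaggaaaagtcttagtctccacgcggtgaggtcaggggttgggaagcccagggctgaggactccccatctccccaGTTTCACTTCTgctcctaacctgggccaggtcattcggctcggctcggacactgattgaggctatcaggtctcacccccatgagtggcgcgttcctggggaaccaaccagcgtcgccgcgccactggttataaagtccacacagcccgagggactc

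Of the 21 probe sets, 16 were bright enough to be tested, with a mean on the log2 scale over that of the median probe set (a signal of 162), as were 6211 probe sets in all. The other 5 are given at the end. Signal here means the deposited intensity, on a linear scale and in arbitrary units. Levels of different probe sets are not comparable, so each was followed only from liver to liver. A first test, called the typical-variance test here, asks whether a probe set varied more than is usual for its signal. In it, 14 of the 16 had an adjusted p under 0.05, against 11.3% of all tested probe sets, and the 2 exceptions were B2m and H2-Q10. In the stricter limma test, which sets each variance against the spread of variances across probe sets, 0 of 16 passed after adjustment, against 0% of all. At an unadjusted p under 0.05 the limma test had 11 of the 16, against 6.84% of all. The median range, the highest signal divided by the lowest, was 2.90-fold over the 16 and 1.63-fold over all tested probe sets. In 13 of the 16 the highest signal was at least 2-fold above the lowest, against 23.4% of all.

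The livers that stood apart were the same for nearly every heavy chain probe set among these 16. Most of the 16 bear a suffix for shared sequence, so they do not count separate genes. Livers 4 and 8 held the 2 highest signals in 14 of the 16 probe sets, against 9.32% of all tested probe sets. Liver 2 or liver 3 was lowest in 15 of the 16, against 26.1% of all. The 15 include H2-Q10, where liver 2 was barely the lowest, at 12173 against 12179.7 in liver 1. The median signal of the whole array moved the same way, from 156 in liver 3 and 164.5 in liver 2 to 178 in liver 4 and 181 in liver 8. The 6211 tested probe sets alone did not. Their median deviation from their own log2 means was -0.040 in liver 4, -0.005 in liver 8, 0.020 in liver 2 and -0.015 in liver 3. Bringing the arrays to a common median moved liver 8 by -0.10 and liver 3 by 0.11 in log2 units. After it, 12 of the 16 had livers 4 and 8 highest, against 5.52% of all. Liver 2 or 3 was then lowest in 13 of the 16, against 17.1% of all, and 11 of the 14 calls remained. The 3 calls lost were on the brightest H2-K1 probe set, on 1 of H2-D1 and on 1 shared by H2-T3 and H2-T18. Without livers 4 and 8, 9 of the 16 passed, all of them among the 14.

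**Figure D1:**
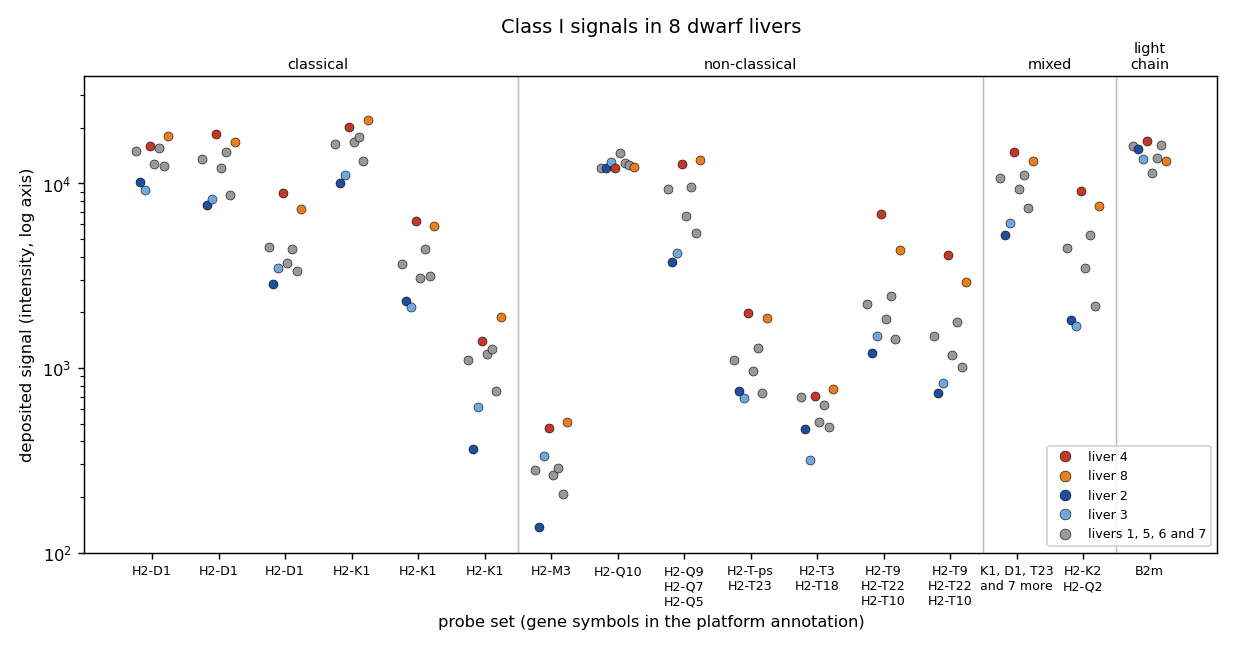
Deposited signal (log axis, arbitrary units) of the 16 tested class I probe sets, 1 point per liver, grouped into classical, non-classical, mixed and light chain probe sets, with livers 4, 8, 2 and 3 coloured. Livers 4 and 8 lie at the top and livers 2 and 3 near the bottom of nearly every heavy chain column, whereas H2-Q10 and B2m form narrow columns of 1.20-fold and 1.5-fold.

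H2-K1, the classical heavy chain at the start of the H2 region, had 3 probe sets, each with 1 symbol. On the brightest the signals in livers 1 to 8 were 16338, 10052.5, 11173.5, 20134, 16876, 17859.6, 13253 and 22157, a mean of 15980.5 ± 4235 (SD, n = 8). Liver 8 was highest, liver 4 next and liver 2 lowest, a range of 2.20-fold, with an adjusted p of 0.00171 in the typical-variance test. That p was 0.291 under median scaling and 0.0693 without liver 2. The next gave 3662, 2316, 2149, 6242, 3083, 4388, 3168.5 and 5851.5 (3858 ± 1528, SD, n = 8). It ranged 2.90-fold with the same 2 livers highest, and the adjusted p was 2.3e-06. The dimmest, the only classical one without the suffix for shared sequences, gave 1101, 364, 612, 1397, 1194, 1269, 754 and 1884 (1072 ± 483, SD, n = 8). It had the widest classical range, 5.17-fold, with an adjusted p of 2.1e-12, and 3.08-fold without liver 2, its lowest liver.

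H2-D1, the classical heavy chain at the other end of the classical interval, also had 3 probe sets. On the brightest the signals in livers 1 to 8 were 15073, 10139, 9179, 15921, 12792, 15558, 12508 and 18128 (13662 ± 3053, SD, n = 8). This was the narrowest classical range, 1.97-fold, and its adjusted p of 0.0471 in the typical-variance test was above the threshold in 10 of the alternative settings. The next gave 13591, 7597, 8268, 18430.4, 12145, 14815, 8657 and 16735 (12529.9 ± 4079, SD, n = 8). Its range was 2.43-fold and its adjusted p 1.66e-05. The dimmest gave 4539, 2839, 3492, 8876, 3707, 4397.5, 3339 and 7251 (4805 ± 2129, SD, n = 8). Here livers 4 and 8 stood clear of the other 6, which lay between 2839 and 4539, and the 3.13-fold range fell to 1.60-fold without those 2 livers.

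Within both H2-K1 and H2-D1, the probe sets disagreed on the size of the range but not on the livers, since all 6 had livers 4 and 8 highest and liver 2 or 3 lowest. The range widened in each gene as the mean signal fell. Among the 134 tested probe sets with a mean signal of at least 10000, the median range was 1.44-fold, 11 had a range of at least 2-fold and 12 passed the typical-variance test. Whether the brightest signals were compressed was not tested. 5 of the 6 classical probe sets bear the array's suffix for sequences shared within a gene family, so signal from other heavy chains cannot be separated from theirs.

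B2m, the light chain that classical heavy chains need to reach the cell surface, had another order of livers. Its 1 probe set gave 15972, 15307, 13570.0, 17068, 11377.5, 13769, 16193 and 13235 in livers 1 to 8 (14561 ± 1890, SD, n = 8). Liver 4 was highest, as for many heavy chains, but liver 7 came next, and livers 8 and 5 were the lowest. The range was 1.5-fold, and 1.29-fold without liver 5. It was below the 1.63-fold median of all tested probe sets, but above the 1.44-fold median of the 134 with a mean signal of at least 10000. Its adjusted p was 1 in the typical-variance test and 0.992 in the limma test. A p that misses the threshold does not show that B2m was constant.

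H2-Q10, a non-classical heavy chain that hepatocytes secrete, had the narrowest range of the 16 probe sets. Its probe set gave 12179.7, 12173, 13063, 12181, 14559.8, 12853.5, 12615.5 and 12328 in livers 1 to 8 (12744 ± 807, SD, n = 8). In 7 livers the signal lay between 12173 and 13063, and liver 5 stood above them, so that the range of 1.20-fold became 1.07-fold without it. Livers 4 and 8, highest on the other heavy chain probe sets of the 16, had 12181 and 12328 here. The adjusted p was 1 in the typical-variance test and 0.995 in the limma test.

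The other non-classical probe sets ranged more widely. H2-Q7 encodes Qa-2, a membrane-anchored molecule of the Q region, and was read by a probe set shared with H2-Q9 and H2-Q5. That probe set gave 9348.5, 3757, 4186, 12755, 6701, 9519, 5392 and 13351 in livers 1 to 8 (8126 ± 3709, SD, n = 8). Livers 8 and 4 were highest and liver 2 lowest, a range of 3.55-fold with an adjusted p of 2.4e-12. H2-T23 encodes Qa-1, which presents leader peptides of other class I chains to NK cell receptors. Its probe set, shared with the pseudogene H2-T-ps, gave 1107.5, 746, 688, 1984, 962, 1279.5, 733 and 1861 (1170.1 ± 507, SD, n = 8). Livers 4 and 8 were again highest, the range was 2.89-fold and the adjusted p 8.3e-07.

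H2-T22, a neighbour of H2-T10, encodes a chain that some gamma-delta T cells recognise. H2-T10 itself is annotated as a transcribed pseudogene in the reference genome, and 2 probe sets covered both genes jointly with H2-T9. On the brighter the signals were 2210.4, 1201, 1494, 6868, 1853, 2464, 1438 and 4363 (2737 ± 1943, SD, n = 8). On the dimmer they were 1499, 729.8, 828, 4106, 1176, 1786, 1016.5 and 2927 (1758 ± 1181, SD, n = 8). Both had liver 4 highest, liver 8 next and liver 2 lowest, and ranged 5.72-fold and 5.63-fold, the widest of the 16. The adjusted p-values were 1.87e-17 and 1.76e-18 in the typical-variance test. Without liver 4 the ranges were 3.63-fold and 4.01-fold, and without livers 4 and 8 they were 2.05-fold and 2.45-fold.

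H2-M3 presents peptides that begin with N-formylmethionine, as bacterial and mitochondrial proteins do. Its tested probe set gave 281, 138, 335, 473.5, 262, 286, 207 and 512 (312 ± 127, SD, n = 8). Livers 8 and 4 were highest and liver 2 lowest, but liver 3 came next after them, where it was near the bottom for most heavy chains. The range was 3.71-fold with an adjusted p of 0.00103, and 2.47-fold with an adjusted p of 0.0869 without liver 2. A probe set shared by H2-T3 and H2-T18, which names no member, gave 700.4, 467, 315, 705, 512, 632, 478 and 769 (572 ± 154, SD, n = 8). Livers 8 and 4 were highest and liver 1 was close behind, with a range of 2.44-fold and an adjusted p of 0.0293. That p was 0.279 under median scaling and above the threshold in 7 of the alternative settings, the lone omission of liver 1, 3 or 8 among them.

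Both tested mixed probe sets, whose symbols cover several groups of heavy chains, also had livers 4 and 8 highest. The one with 10 symbols, H2-K1, H2-D1 and H2-T23 among them, gave 10658, 5242, 6126, 14879, 9296, 11120.4, 7382 and 13243 (9743 ± 3391, SD, n = 8), a range of 2.84-fold. The one shared by H2-K2 and H2-Q2 gave 4444.5, 1831, 1688, 9118, 3463, 5245, 2159.8 and 7536 (4436 ± 2742, SD, n = 8), a range of 5.40-fold. Liver 4 was highest and liver 8 next on each, and their adjusted p-values in the typical-variance test were 2.18e-06 and 1.49e-21. With limma the smallest adjusted p of any member was 0.260, on the probe set of H2-K2 and H2-Q2.

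**Figure D2:**
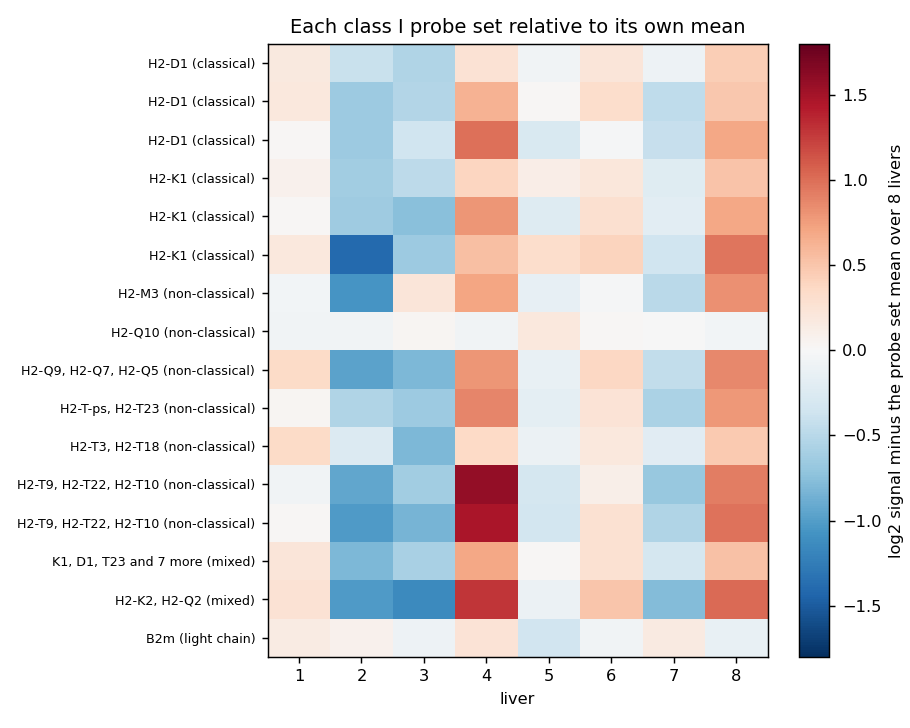
Colour map of log2 signal minus the mean over 8 livers, for the 16 tested class I probe sets (rows) in livers 1 to 8 (columns), red above and blue below the mean. Columns 4 and 8 are red and columns 2 and 3 mostly blue in the heavy chain rows, and the rows of H2-Q10 and B2m are pale, with H2-Q10 highest in liver 5 and B2m lowest there.

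Set beside each other, the tested classical member probe sets and the non-classical ones other than H2-Q10 had their 2 highest values in livers 4 and 8 and their lowest in liver 2 or 3. Over all 26 tested heavy chain probe sets, members and others, livers 4 and 8 were highest in 16, against 9.32% of all tested probe sets. Whether the classes ran together was not tested. Relative to each probe set's own mean on the log2 scale, the median of the 6 classical probe sets was 0.58 in liver 4 and 0.61 in liver 8, with 6 of 6 above their means in both. It was -0.64 in liver 2 and -0.53 in liver 3, with 0 of 6 above. The 6 non-classical probe sets other than H2-Q10 had medians of 0.83 in liver 4 and 0.84 in liver 8, with 6 of 6 above, and of -0.95 in liver 2 and -0.73 in liver 3. Livers 1, 5 and 6 lay nearer the means, at 0.13, -0.02 and 0.25 for the classical and 0.02, -0.16 and 0.22 for the non-classical probe sets, and liver 7 lay at -0.29 and -0.51. Under median scaling the classical values were 0.50, 0.51, -0.61 and -0.42 in livers 4, 8, 2 and 3, and no sign changed in these livers in either class with median scaling or quantile normalization.

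The ranges of the classes overlapped. The median range was 2.67-fold over 6 classical probe sets (1.97-fold to 5.17-fold, all 6 past the typical-variance test) and 3.55-fold over 7 non-classical ones (1.20-fold to 5.72-fold, 6 of 7 past it). The ratio of the medians, classical over non-classical, was 0.75 with a jackknife standard error over livers of 0.125. Leaving out liver 1, 5, 6 or 7 left the ratio at 0.75. That error thus rests on the livers at the extremes and does not measure the precision of the ratio. The direction of the ratio rested on shared probe sets, since it was 1.09 over probe sets with 1 symbol and 1.79 once probe sets with shared sequences were removed. The first set 6 classical probe sets against 2 non-classical ones, H2-M3 and H2-Q10. The second set 1 against 1, the non-classical one being that of H2-T23 and H2-T-ps. No order of the classes by range is therefore given. With 1 array per liver, the order of neighbouring livers could not be tested for any member.

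**Figure D3:**
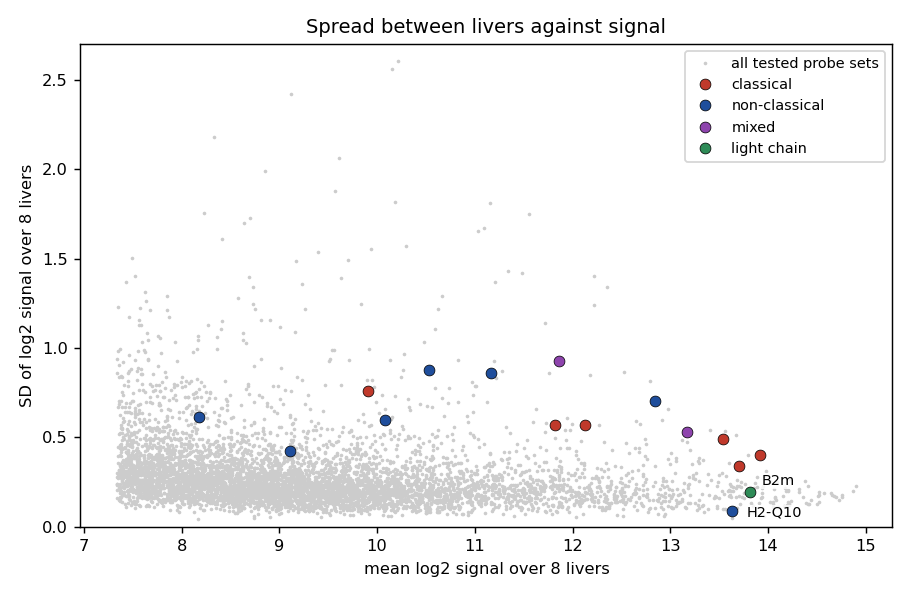
SD of log2 signal over 8 livers (vertical axis) against mean log2 signal (horizontal axis) for 6211 tested probe sets in grey and the 16 class I probe sets in colour by class. Most class I points lie above the grey band at their signal, and B2m and H2-Q10 lie inside it or at its lower edge.

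The arrays carried 15 further probe sets with 1 class I symbol that were not members, and 11 were tested. Of the 11, 4 passed the typical-variance test, against 11.3% of all tested probe sets. These were H2-D4 (3.73-fold), H2-Q4 (2.64-fold), H2-Q5 (6.26-fold) and H2-T18 (2.60-fold), and liver 8 was highest in all 4. Livers 4 and 8 held the 2 highest signals in 2 of the 11, H2-Q5 and H2-T18, against 9.32% of all tested probe sets. Liver 4 was highest in 0 of the 11, against 17.2% of all, and with so few probe sets that count says little. Liver 1 came next after liver 8 for H2-D4 and H2-Q4. The probe set with the symbol H2-K2 alone, which the array's design still marks as sharing sequence with other transcripts, ranged 1.33-fold with an adjusted p of 1, and liver 1 was highest. H2-Bl ranged 1.88-fold and was lowest in liver 4, with an adjusted p of 0.614. Narrow ranges were therefore not limited to H2-Q10 among the heavy chain probe sets.

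Most of the listed genes that supply peptides to class I varied too. Lists are described by counts and medians, beside 10.3% of 4819 tested genes past the typical-variance test and a median range of 1.61-fold over those genes. Of the immunoproteasome list, the interferon-inducible catalytic subunits and activators, 4 of 4 tested genes passed, and livers 4 and 8 were highest in all 4, against 9.71% of all tested genes. Their median range was 9.38-fold, led by Psmb8 at 17.6-fold. Psmb10 and Psme1 had 4.81-fold and 4.10-fold. Of the peptide loading list, 4 of 5 tested genes passed, with a median range of 4.36-fold, and livers 4 and 8 were highest in 3 of the 5. The transporter chains ranged 8.40-fold (Tap2) and 6.86-fold (Tap1), tapasin (Tapbp), which bridges them to the heavy chain, 4.36-fold, and the oxidoreductase Pdia3 3.33-fold. For Pdia3 liver 2 came next after liver 4. Canx, the chaperone calnexin, ranged 1.68-fold, was lowest in liver 4 and did not pass, with an adjusted p of 0.646.

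Among listed regulators of class I transcription, 4 of 7 tested genes passed. Socs1, an inhibitor of interferon signalling, had 24.9 in liver 3 and 826.5 in liver 4, and its low end lay under the signal of 162. Irf1, an interferon-induced activator of class I promoters, ranged 5.46-fold, with 500.1 in liver 3 and 2729 in liver 4. Irf8 and Ciita ranged 4.26-fold and 4.06-fold, and liver 4 was highest for both. Rela, an NF-kappaB subunit, and Rfxank, a subunit of the RFX complex, ranged 1.39-fold and 1.27-fold and did not pass, each with an adjusted p of 1. The class II list holds chains that present peptides on professional antigen-presenting cells, and also H2-DMa, H2-DMb1 and the invariant chain, Cd74. It had 6 of 6 tested genes past the test and a median range of 14.3-fold. Other class I-like genes had 0 of 3 past it, namely Cd1d1, which presents lipids (1.76-fold), Azgp1 (1.75-fold) and Hfe, a regulator of iron uptake (1.37-fold).

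**Figure D4:**
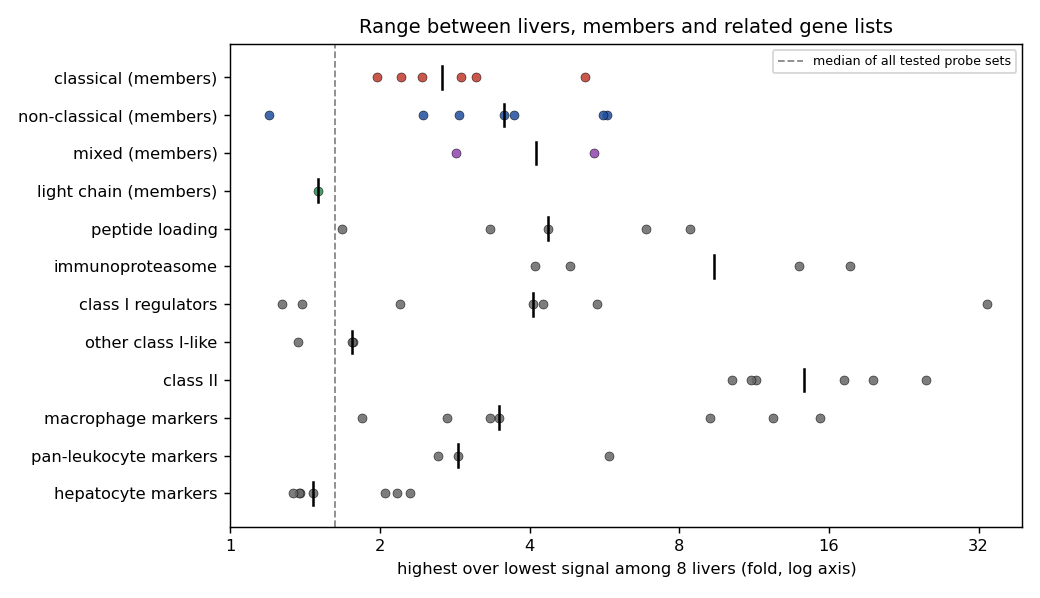
Highest over lowest signal among 8 livers (fold, log axis) for each tested class I probe set by class and for 1 probe set per tested gene in related lists, with the median of each row as a bar and the median of all tested probe sets, 1.63-fold, as a dashed line. The heavy chain rows reach 5.17-fold to 5.72-fold, the immunoproteasome and class II rows extend past 10-fold, and B2m lies left of the dashed line.

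Summed macrophage and pan-leukocyte markers were highest in livers 4 and 8. The summed signal of the 9 macrophage markers on the array was 15689 in liver 4 and 10870.2 in liver 8, and between 3402 (liver 7) and 6405 (liver 6) in the other 6. Of 7 tested macrophage markers, 6 passed the typical-variance test, led by Lyz2 at 15.3-fold, and none of the 9 was at 0. The exception, Clec4f, ranged 1.84-fold with an adjusted p of 0.550 in that test. Liver 4 was highest for it and liver 6 came next. The 7 pan-leukocyte markers summed to 6202 in liver 4 and 3889 in liver 8, and to between 1472 and 2232 in the others, with 3 of 3 tested markers past the test. Markers of T and NK cells, 10 genes, summed to 1005 in liver 4 and 760 in liver 8. In the others they summed to between 381 (liver 3) and 708 (liver 2). Of these genes only Cd4 was bright enough to be tested. Cd4 was highest in liver 2 and did not pass, with an adjusted p of 0.436 in the typical-variance test. Cd8a, the co-receptor that binds classical class I, lay between 7.3 and 35.4, and was above the floor of 11.2 in 4 of 8 livers. In these bulk samples, more cells of a type and more RNA per cell cannot be told apart, and the part of leukocytes in the heavy chain signals was not tested.

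Hepatocyte markers were bright in every liver. The 7 hepatocyte markers on the array summed to between 96121 (liver 6) and 132430 (liver 3), and Alb ranged 1.46-fold. Of the 7, 3 passed the typical-variance test, against 10.3% of all tested genes, namely Tat (2.30-fold), Fgb (2.16-fold) and Hnf4a (2.05-fold). Livers 4 and 8 were the 2 highest in 0 of the 7, against 9.71% of all tested genes, a share at which 0 of 7 is not unusual. B cell, neutrophil and endothelial markers had 0 of 3, 0 of 2 and 0 of 5 tested genes past the test. At 10.3% over all tested genes, counts of 0 among so few genes are not unusual. The 7 neutrophil markers summed to 1251 in liver 8 and 1082 in liver 4, and to between 731 and 1001 in the others. Summed B cell markers were highest in liver 2 and summed endothelial markers in liver 5. Of 4 tested housekeeping genes, only Actb passed (3.01-fold, highest in liver 4).

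Whether B2m followed its partners was examined over the 8 livers on log2 signals by Pearson's r and Spearman's rho. The two-sided p-values came from exact permutation of all 40320 pairings of livers. The family held 13 relations, of which 0 passed after Benjamini-Hochberg adjustment. With the brightest H2-K1 probe set, r was -0.122 (exact permutation p = 0.779, adjusted 0.857) and rho -0.119 (exact p = 0.793, adjusted 1), and r was -0.382 without the 2 livers farthest from the median of B2m. With H2-D1, r was 0.0806 (exact permutation p = 0.845, adjusted 0.857) and rho 0.0476 (exact p = 0.935, adjusted 1), and r was -0.172 without those 2 livers. For H2-K1, r was 0.283 with quantile normalization. The sign of both relations thus turned with the livers or scaling used. With 8 livers, only a strong relation could have passed.

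The largest coefficient was with H2-Q10, at r = -0.823 (exact permutation p = 0.0101, adjusted 0.132) and rho = -0.595 (exact p = 0.132, adjusted 1). Without the 2 livers farthest from the median of B2m, r was -0.471. It was -0.818 without liver 4 and -0.935 without livers 4 and 8, but -0.396 under median scaling and -0.357 with quantile normalization. The size of r thus moved with the livers left out and with the scaling. Liver 5, which was lowest for B2m and highest for H2-Q10, lay farthest from the others. Spike-in controls had a mean log2 signal of 10.70 to 10.88 on arrays 1 to 4 and of 10.18 to 10.46 on arrays 5 to 8, a split that the labels do not name. With each of these sets of 4 centred on its own mean, r was -0.768 for H2-Q10 and 0.124 for H2-K1. The other relations had r between -0.522 (Alb) and 0.362 (Lyz2), with adjusted p-values of 0.857. With the same centring r was -0.806 for Alb.

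**Figure D5:**
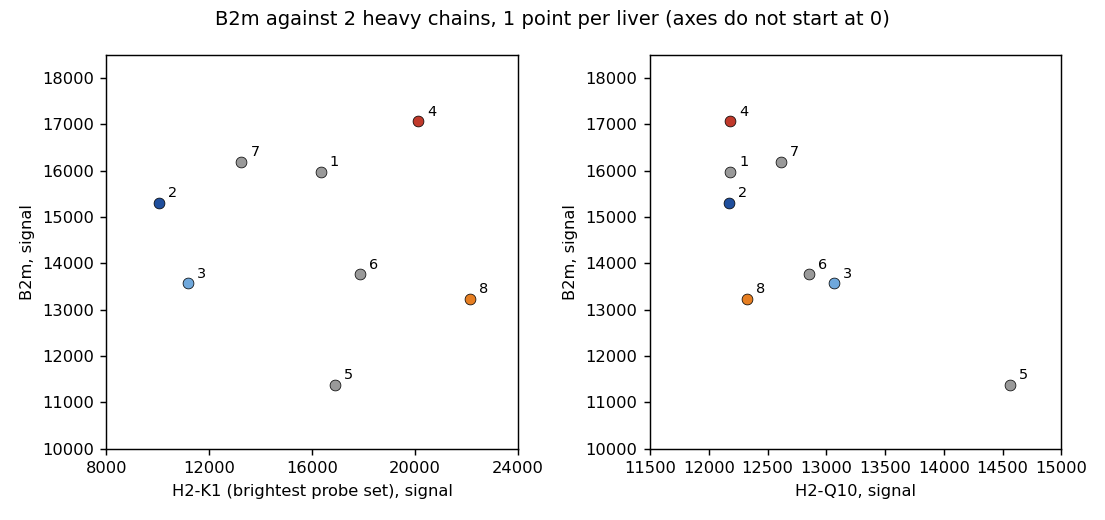
B2m signal (vertical axis) against the brightest H2-K1 probe set (left) and H2-Q10 (right), 1 numbered point per liver, on linear axes that do not start at 0. On the left the points show no line (r = -0.122), and on the right liver 5 lies apart at low B2m and high H2-Q10 (r = -0.823 with it).

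The genes whose log2 signals ran most like the members over the 8 livers are given as a description, out of 4804 other genes with 1 symbol, each by its brightest probe set. For H2-K1 they were Pgd, an enzyme of the pentose phosphate pathway (r = 0.994), Rit1, a small GTPase (0.988), and Trafd1, an interferon-induced zinc-finger protein (0.974). Asah1, acid ceramidase (0.961), Ctsd, the lysosomal protease cathepsin D (0.954), Rhog (0.952), the interferon-induced Ifi27 (0.946), Tars (0.941), Capzb and Itih3 (both 0.940) followed. Trafd1 had 329 in liver 2 and 1175 in liver 8 (3.57-fold), and Pgd had 520.4 and 1015 in the same livers (1.95-fold). Without livers 4 and 8 these 10 coefficients lay between 0.916 (Capzb) and 0.991 (Rit1).

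For B2m the nearest genes were Hnrnpul2 (r = 0.984), Gclm, a subunit of the enzyme that starts glutathione synthesis (0.980), and Rev3l, a DNA polymerase subunit (0.952). Ranbp1 (0.937), Sh3bgrl (0.936), the protease inhibitor Mug1 (0.935), Rnf6 (0.920), Dyrk1a (0.918), Fgg, the fibrinogen gamma chain (0.918), and Lmnb1 (0.912) came next. Gclm had 3029.7 in liver 4 and 1761 in liver 5, the livers where B2m was highest and lowest. None of the 10 was among the 10 of H2-K1. B2m and H2-K1 themselves had r = -0.122, so no gene could run this closely with both, and the lack of overlap is no separate result. With 8 livers and 4804 genes, high coefficients are found for many genes, so these names describe the order only.

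Fcgrt, the neonatal Fc receptor that recycles IgG and albumin and also pairs with B2m, lay between 8.6 (liver 3) and 113.6 (liver 5), with a median of 45.3. It was above the floor of 11.2 in 7 of 8 livers and below the signal needed for testing, so no range is read from it. The further H2-M3 probe set lay between 29 and 122, with liver 6 highest. Of the shared probe sets, the one of H2-Q9, H2-Q7, H2-Q10 and H2-K1 lay between 79.7 and 323 (liver 4). The one of H2-Q9, H2-Q7, H2-Q4, H2-Q1 and H2-D1 lay between 11.5 and 44.9, and a further one of H2-T3 and H2-T18 between 15.7 and 87.3. Without detection calls, signals this low could not be told from background.

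The trimmed mean signal, which leaves out the top and bottom 2% of probe sets, lay between 496 and 498, array pairs correlated at 0.907 to 0.973 over tested probe sets (28 pairs), and the 3′ to 5′ ratio was 0.806 to 0.969 for Gapdh and 1.24 to 1.74 for beta-actin. Liver 4 had the lowest beta-actin ratio and liver 8 the lowest Gapdh ratio. The number of arrays, 8, limits the precision of every value. Within arrays 1 to 4 alone, the brightest H2-K1 probe set ranged 2.0-fold and H2-Q10 1.07-fold, and within arrays 5 to 8 they ranged 1.67-fold and 1.18-fold.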

How the data were processed

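The authors deposited linear intensities of 12488 probe sets on each array. Per the labels, a Hewlett-Packard GeneArray instrument scanned the arrays. How images became intensities, and with which software or scaling, is not given in the sources used here. Trimmed means differed little between arrays, so the intensities were used as deposited. The 66 control probe sets were left out. Of the others, 10833 had 1 symbol in the platform annotation, 396 had several and 1193 had none. Signals below the 10th percentile, 11.2, were set to it and log2 was taken. The brighter 6211 probe sets, by mean log2 signal, were tested.

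The typical-variance test divided the variance over 8 livers by a loess curve of variance on mean signal (span 0.3) and read the ratio one-sided from chi-square (7 degrees of freedom). It calls probe sets that vary more than most of like signal, for any reason. The limma test (limma 3.58.1, R 4.3.3) used an F distribution with 7 and 4.90 (prior) degrees of freedom, trended and robust. Both were adjusted by Benjamini-Hochberg over all tested probe sets at 0.05. Both were also run on simulated data, whose outcome is not given here. The chi-square reading assumes a common variance for probe sets of like signal, so its very small p-values are not exact. Correlations were computed in Python 3.11.15 with scipy 1.17.1 and numpy 2.4.6. In the relations of B2m, each partner gene was represented by its brightest tested probe set.

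The members, gene lists and tests were chosen with earlier results of these data known. All members were named, with all 8 values where tested. Of each list, up to 4 genes with the widest and 2 with the narrowest range were named, and for B2m and the brightest classical probe set the 10 genes with the highest r. Scaling, floor, filter, shared-sequence probe sets and livers were varied. All 8 samples were used.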

Additional observations from a re-analysis of the deposited data

Results flagged for a closer look

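The H2-Q10 signal of liver 5, 14559.8, stood apart from the other 7 livers, which lay between 12173 and 13063. Its gap to the nearest of them was 0.606 of the whole range of the 8 livers on the log2 scale. Chance alone marks about 1 in 20 groups of samples in this way, and 16 class I probe sets were examined.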

How the results depend on the processing

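The count of 14 class I probe sets past the typical-variance test was 9 without livers 4 and 8, and 2 of 3 with probe sets of shared sequence removed, which left fewer to test. Leaving out each liver in turn gave 11 to 14. The limma test called 0 members in every setting, livers left out included (0 to 0). Over all probe sets, limma called 21 with shared sequences removed. The ratio of the classical to the non-classical median range, 0.75, became 1.79 with shared sequences removed and 1.09 over probe sets with 1 symbol. Leaving out each liver in turn gave 0.669 to 0.847. Of 258 tests of single members under the settings, 235 stayed on the same side of the threshold, 23 lost the call and 0 gained one. Leaving out H2-Q10, an alternative chosen after seeing the data, gave a ratio of 0.734.

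Relations of B2m stayed at 0 of those run in every setting, and leaving out liver 4 or 8 gave 0 to 0. Weak coefficients changed sign, and the cause was not tested. Under median scaling r was -0.248 for H2-D1, -0.232 for H2-Q7, -0.223 for H2-T23, -0.0968 for H2-T10, -0.144 for Tap1, -0.162 for Psmb8 and -0.170 for Cd74. Without liver 4 it was -0.0876 for H2-D1, -0.200 for H2-Q7, -0.284 for H2-T23, -0.314 for H2-T10, -0.185 for Tap1, -0.207 for Psmb8, -0.0848 for Irf1, -0.261 for Cd74 and -0.0375 for Lyz2. Also without liver 4 it was -0.394 for H2-K1 and -0.431 for H2-M3. Without liver 8 it was 0.269 for H2-D1, 0.247 for H2-Q7, 0.293 for H2-T23, 0.352 for H2-T10, 0.386 for Tap1, 0.322 for Psmb8, 0.471 for Irf1, 0.326 for Cd74 and 0.543 for Lyz2. Without livers 4 and 8 it was -0.0750 for H2-Q7, -0.176 for H2-T23, -0.230 for H2-T10, -0.0183 for Tap1, -0.0694 for Psmb8 and -0.140 for Cd74. For H2-K1 it was 0.283 with quantile normalization, 0.0194 without liver 8 and 0.124 with arrays 1 to 4 and 5 to 8 centred apart, and for H2-M3 it was 0.0524 and 0.0641 in the first 2 of these. No paired analysis was possible because the 8 livers form 1 group.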
